A study of Homo sapiens with 2 samples.

Results

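Tubulins were examined here in carboplatin-resistant and dual carboplatin/docetaxel-resistant A2780 ovarian carcinoma cells. Members are a set of gene names: every probe of the array annotated to TUBB, TUBB1, TUBB2A, TUBB2B, TUBB3, TUBB6, TUBA1A, TUBA1B, TUBA1C or TUBG1 was taken. These are 10 of the 30238 gene names on the array, with 6 beta tubulins, 3 alpha tubulins and 1 gamma tubulin, measured by 19 of its 41000 probes.

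A2780CBN was selected in stepwise increasing carboplatin to 22.2 µM, and A2780CBNDXL in carboplatin and docetaxel together. The dose of each drug for A2780CBNDXL is not given here, since the labels do not separate the drugs. Each resistant line was hybridized against a co-cultured A2780 control, A2780CC, which was passaged without drug, and all of the groups derive from the A2780 ovarian carcinoma cell line. For each RNA, 3 isolations (RIN 10) were pooled, so each line and each control is 1 sample, and each comparison consists of 4 technical arrays, with 2-colour labelling in the forward direction on arrays 1 and 3 and in the reverse direction on arrays 2 and 4. Arrays 1 and 2 were on one slide and arrays 3 and 4 on another. No test across samples was possible, no p-value is given for any tubulin, and every SD below is over technical arrays and covers labelling and hybridization error only. The docetaxel-resistant line A2780DXL was not analysed here.

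Alpha- and beta-tubulin form the heterodimer from which microtubules are built, and gamma-tubulin, in ring complexes with the TUBGCP proteins, nucleates them. Docetaxel binds beta-tubulin within the microtubule and stabilizes it, whereas carboplatin forms adducts with DNA. The beta-tubulin isotypes are closely alike as proteins except toward the C-terminus, and their transcripts share more sequence in the coding part than at the 3′ end. TUBB encodes the widely expressed class I isotype, TUBB2A and TUBB2B the class II isotypes, TUBB3 the class III isotype typical of neurons and often followed in taxane-resistant tumours, TUBB6 the class V isotype, and TUBB1 the isotype of platelets and megakaryocytes.

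Since the isotypes are so alike, the probe sequences are shown for the genes on which the results turn. The probes are 60 bases long, and their positions are those of the array annotation on NCBI36, 1-based. TUBB3 has an upstream probe (probe 1, position 1140 of its transcript) and a 3′ probe (probe 2, position 1642); where the coding sequence ends could not be looked up. The upstream probe overlaps a TUBB probe over 50 bases, at chr16:88529436-88529485 (+ strand) for TUBB3 and chr6:30799894-30799943 (+ strand) for TUBB. The 2 genes have the same base at 41 of these positions and differ at 9, shown in capitals:
TUBB: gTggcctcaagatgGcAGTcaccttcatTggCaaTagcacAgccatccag
TUBB3: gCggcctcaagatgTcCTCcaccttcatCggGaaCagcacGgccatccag
The array annotation lists this TUBB3 probe also under TUBB6. The upstream probe of TUBB2A (probe 1, chr6:3099399-3099458, − strand), which is listed under TUBB2A, TUBB2B and TUBB4A, matches at 50 of 60 bases a probe of TUBB2C (now TUBB4B) at chr9:139257467-139257526 (+ strand), with the 10 differing bases in capitals:
TUBB2A: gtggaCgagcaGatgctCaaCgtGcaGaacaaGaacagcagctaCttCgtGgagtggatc
TUBB2C: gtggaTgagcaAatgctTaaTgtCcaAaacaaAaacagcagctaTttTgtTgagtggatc
The probes of TUBB2B (position 1703 of its transcript) and the 3′ probe of TUBB3 list no other gene, and the first 30 bases of each are shown, at chr6:3169780-3169809 (− strand) and chr16:88529938-88529967 (+ strand):
TUBB2B: ttgatgacatcaatgtaacatttgagatat
TUBB3: ttgttttttactggtttgtgtttatatttt
The annotation gives at most a few accessions per probe, so a gene that is not listed may still share sequence with it.

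Values below are log2 ratios of the processed channel signals, resistant line over control, with the reverse arrays turned over, so that a positive ratio is a higher level in the resistant line. The sign of every ratio rests on the labels' statement that the line was Cy5 and the control Cy3 on the forward arrays. Once turned, forward and reverse arrays correlated across probes with r of 0.582 to 0.612 in A2780CBN and 0.727 to 0.737 in A2780CBNDXL. Arrays of the same labelling direction correlated more highly, with r of 0.85 to 0.87 in A2780CBN and 0.87 to 0.90 in A2780CBNDXL. On the arrays, 59.8 to 67.5% of spots were well above background per channel, none was saturated, and 165 to 1006 spots per array were dropped as outliers. A gene was called changed when its brightest probe, well above background in one of the channels on all 4 arrays, had the same sign on every array and a mean change of at least 2-fold (1 on the log2 scale). RNA came from whole cultures, so fewer cells with a transcript and less transcript per cell cannot be told apart.

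TUBB2B was the tubulin with the largest change in both lines, and the direction was opposite. It was 3.63-fold higher in A2780CBN than in its control, and 15.95-fold lower on the measured signals in A2780CBNDXL. Of the 10 members, 6 could be tested in A2780CBN and 8 in A2780CBNDXL, and TUBB2B was the only one called in each. Over all genes tested, 12.6% were called in A2780CBN and 16.9% in A2780CBNDXL, so 1 of 6 and 1 of 8 are near these shares. The median log2 ratio of the tested tubulins was 0.01 in A2780CBN, against -0.06 for all genes tested, and -0.20 in A2780CBNDXL, against 0.04 for all genes tested. Taken over tubulin probes, the median was -0.001 in A2780CBN, against -0.07 for all probes tested. In A2780CBNDXL it was 0.26 by probe, against 0.04 for all probes tested, so its sign there depended on the choice of probes.

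**Figure D1:**
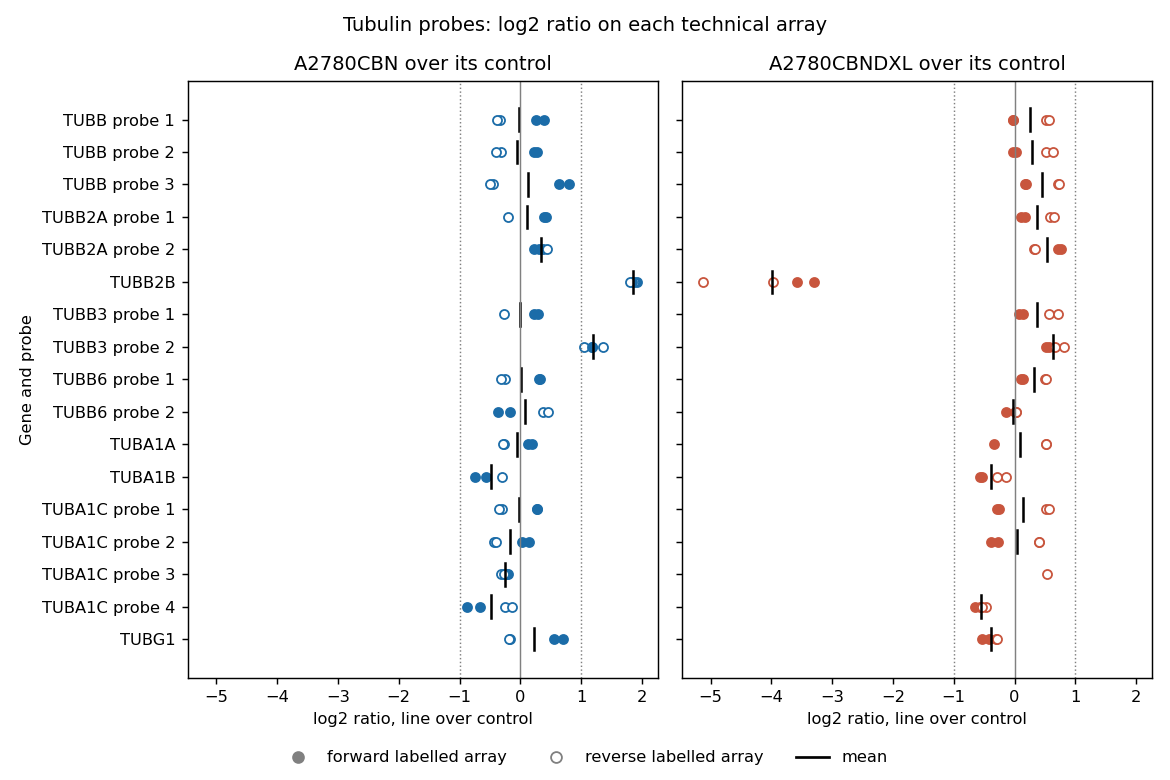
Log2 ratio of line over control (x axis) for each tubulin probe above background (y axis), with 1 point per technical array, filled for forward and open for reverse labelling, and a black bar for the mean of the 2 labelling directions. Dotted lines mark 2-fold; TUBB2B lies to the right in A2780CBN and far to the left in A2780CBNDXL, and the 3′ probe of TUBB3 (probe 2) is the only other probe whose mean passes a dotted line.

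In A2780CBN, the TUBB2B signal was 498, 438, 472 and 537 on arrays 1 to 4, and in its control 132, 120, 131 and 153. The 4 signals of the line all exceeded those of the control. The log2 ratios were 1.92, 1.86, 1.84 and 1.81, with a mean of 1.86 ± 0.05 (SD, n = 4 arrays). In A2780CBNDXL, the signal was 25.6, 26.5, 30.9 and 15.2 in the line and 252, 419, 371 and 527 in its control. The line was well above background on 1 of 4 arrays and the control on all 4, and the signals did not overlap. The log2 ratios were -3.30, -3.98, -3.58 and -5.12, with a mean of -4.00 ± 0.80 (SD, n = 4 arrays). With each array's dim channel raised to the lowest signal that was well above background on that array, an alternative chosen after the values were seen, TUBB2B was 13.9-fold lower in A2780CBNDXL. A dim signal that already exceeded this floor was kept, so the value is not a lower bound.

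The controls also differed for this gene. On channel signals scaled between arrays (log2), TUBB2B was highest in A2780CBN (8.95 ± 0.16), then in the A2780CBNDXL control (8.55 ± 0.33), then in the A2780CBN control (7.09 ± 0.19), and lowest in A2780CBNDXL (4.56 ± 0.49; SD, n = 4 arrays each). The first 2 of these overlapped over their arrays, and no other neighbours did. Between the lines, A2780CBNDXL was lower than A2780CBN on 4 of 4 array pairs matched for slide and labelling, by -4.39 ± 0.62 on the measured signals and, with the dim channel raised as above, by 18.3-fold. Between the controls, that of A2780CBNDXL was 2.76-fold higher (1.46 ± 0.22, higher on 4 of 4 pairs). Set against the control of the other line, the log2 ratio of TUBB2B was therefore 0.40 in A2780CBN and no longer passed 2-fold, and -2.53 in A2780CBNDXL. With normexp background correction (an offset of 50 added to the signals) and loess, the ratios were 0.94 in A2780CBN, again below 2-fold, and -1.30 in A2780CBNDXL. Fewer genes of the whole array were called with this correction. They were 604 in A2780CBN and 1172 in A2780CBNDXL, against 2253 and 2893 on the processed signals. The part of the offset in the TUBB2B ratios was not tested.

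**Figure D2:**
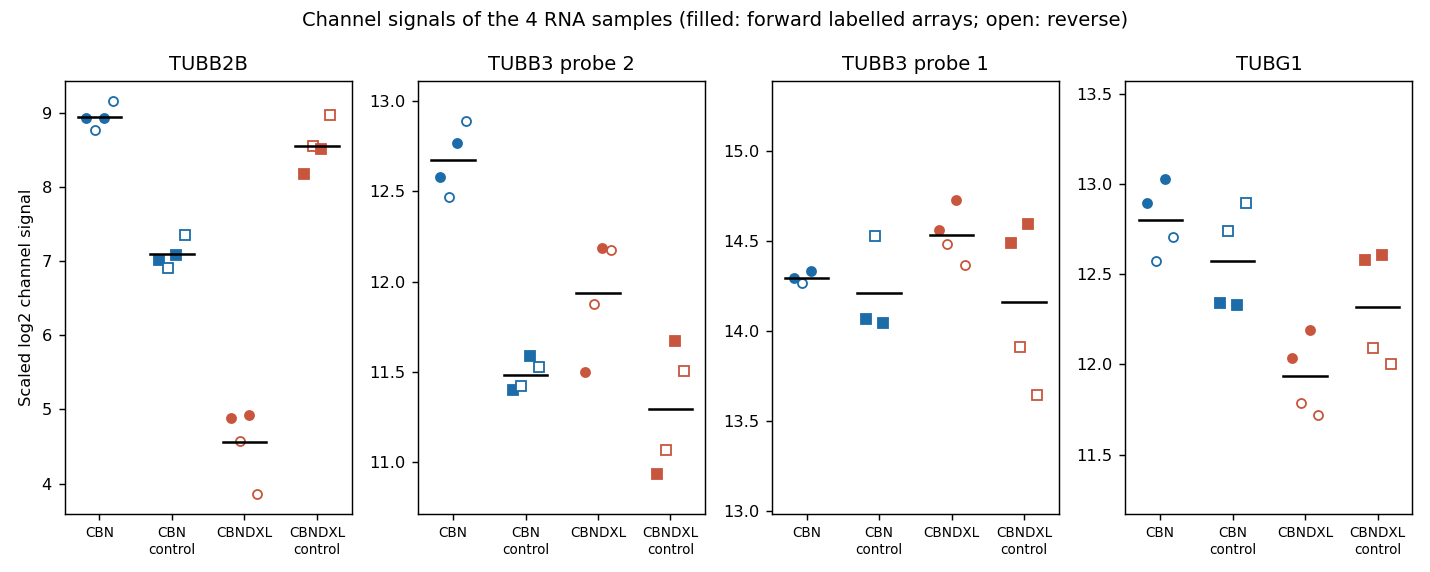
Scaled log2 channel signal (y axis, a different range in each panel) of the 4 RNA samples (x axis) for TUBB2B, the 3′ probe of TUBB3 (probe 2), the upstream probe of TUBB3 (probe 1) and TUBG1, with 1 point per array, circles for lines, squares for controls and a bar for the mean. For TUBB2B the controls lie apart at 7.09 and 8.55, and for the 3′ probe of TUBB3 they have means of 11.48 and 11.29, below the means of both lines.

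For TUBB3 the probes gave different answers. At the 3′ probe, the signal in A2780CBN was 6161, 5359, 6712 and 6832 on arrays 1 to 4, and in its control 2725, 2588, 2960 and 2652. The signals did not overlap. The log2 ratios were 1.18, 1.05, 1.18 and 1.37, with a mean of 1.19 ± 0.13 (SD, n = 4 arrays), a 2.29-fold higher level. In A2780CBNDXL, the signal at this probe was 2594, 4572, 4528 and 5288, and in its control 1756, 2603, 3173 and 3321. Line and control overlapped in signal between arrays, but the line was higher on each of the 4 arrays, with log2 ratios of 0.56, 0.81, 0.51 and 0.67 and a mean of 0.64 ± 0.13 (SD, n = 4 arrays), which is 1.56-fold. These ratios were 1.095 and 0.57 with normexp and loess, and 1.38 and 0.45 against the control of the other line.

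At the upstream probe, whose signals were brighter and which therefore stood for the gene, the TUBB3 log2 ratios in A2780CBN were 0.23, -0.26 and 0.29 on arrays 1 to 3. The spot was an outlier on array 4, so TUBB3 was not tested in that line by this probe. In A2780CBNDXL the ratios were 0.07, 0.57, 0.13 and 0.72, with a mean of 0.37 ± 0.32 (SD, n = 4 arrays). With the brightest probe that lists 1 gene in place of the brightest probe, also chosen after the values were seen, TUBB3 was called higher in A2780CBN, and 2 tubulins were called there. Counted by probe, 14 tubulin probes were tested in A2780CBN and 2 were called, TUBB2B and the 3′ probe of TUBB3, against 12.1% of all probes tested. In A2780CBNDXL, 15 were tested and 1 was called, TUBB2B, against 16.4% of all probes tested.

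The order of the 4 RNAs at the 3′ probe of TUBB3 was A2780CBN (12.68 ± 0.19 on the scaled log2 scale), A2780CBNDXL (11.93 ± 0.32), the A2780CBN control (11.48 ± 0.09) and the A2780CBNDXL control (11.29 ± 0.35; SD, n = 4 arrays each). A2780CBN lay above all other arrays, and the neighbours below it overlapped. The line channel was lower in A2780CBNDXL than in A2780CBN on 4 of 4 pairs (-0.74 ± 0.23), and the controls differed by -0.19 ± 0.26. At the upstream probe, the lines had 14.53 in A2780CBNDXL and 14.30 in A2780CBN, and the controls 14.21 and 14.16. The lines did not overlap with each other there, and each overlapped with both controls.

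The remaining beta tubulins changed by less than 2-fold in both lines. The class I gene TUBB had mean log2 ratios of -0.02, -0.05 and 0.13 at its 3 probes in A2780CBN and of 0.26, 0.29 and 0.45 in A2780CBNDXL. At the brightest of them (probe 2) A2780CBN had ratios of 0.28, -0.32, 0.22 and -0.40 on arrays 1 to 4, and A2780CBNDXL of 0.02, 0.52, -0.03 and 0.63. The sign in A2780CBN followed the labelling direction. The TUBB6 probes had mean ratios of 0.02 and 0.07 in A2780CBN, and in A2780CBNDXL of 0.32 and -0.02.

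For TUBB2A, the probe that lists no other gene (probe 2) was higher in the line on all arrays. Its log2 ratios in A2780CBN were 0.22, 0.37, 0.31 and 0.44 (0.34 ± 0.09), and 0.77, 0.33, 0.71 and 0.33 in A2780CBNDXL (0.53 ± 0.24; SD, n = 4 arrays each), which is under 2-fold. The TUBB2A probe shared with other genes gave 0.39, -0.20 and 0.42 on the first 3 arrays of A2780CBN, with an outlier spot on array 4, and 0.10, 0.58, 0.17 and 0.65 in A2780CBNDXL (0.38 ± 0.28, SD, n = 4 arrays). TUBB2A and TUBB2B lie near each other on chromosome 6, and the rise of TUBB2B in A2780CBN and its fall in A2780CBNDXL were accompanied at TUBB2A by these smaller positive ratios in both lines. Neither probe of TUBB1 was well above background in any channel of any array, so no ratio is given for it.

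Alpha tubulins also changed by less than 2-fold. TUBA1B, with 1 probe, had log2 ratios of -0.56, -0.75 and -0.31 on arrays 1, 3 and 4 of A2780CBN, with an outlier spot on array 2, and of -0.54, -0.14, -0.57 and -0.29 in A2780CBNDXL (-0.38 ± 0.21, SD, n = 4 arrays). The brightest TUBA1C probe (probe 4) had -0.67, -0.26, -0.87 and -0.13 in A2780CBN (-0.48 ± 0.35) and -0.56, -0.47, -0.65 and -0.54 in A2780CBNDXL (-0.56 ± 0.07; SD, n = 4 arrays each). The line was thus lower on every array measured for TUBA1B and for this TUBA1C probe. Other TUBA1C probes had mean ratios of -0.03, -0.17 and -0.25 in A2780CBN, and 0.14 and 0.04 in A2780CBNDXL at the pair measured there on all arrays. The third of these probes was measured on 1 of 4 arrays of A2780CBNDXL only. Its log2 ratio there, on array 4, was 0.53, against -0.54 at probe 4 on the same array. TUBA1A, with 1 probe, had ratios of 0.13, -0.27, 0.19 and -0.28 in A2780CBN and of 0.53, -0.34 and 0.52 on arrays 2 to 4 of A2780CBNDXL.

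The labelling direction moved with many of these values. Leaving out TUBB1, the forward and the reverse mean had opposite signs at 11 of 17 tubulin probes in A2780CBN and at 6 of the 16 measured in both directions in A2780CBNDXL. TUBB2B, the 3′ probe of TUBB3, TUBB2A probe 2, TUBA1B and TUBA1C probe 4 kept the same sign in both directions in both lines. The part of the dyes in the small ratios was not tested.

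Gamma-tubulin, which nucleates microtubules at the centrosome, differed between the lines by less than 2-fold. TUBG1 signal was 7589, 5633, 8085 and 6058 in A2780CBN and 5177, 6334, 4982 and 6902 in its control, which overlapped. It was 3733, 4307, 4585 and 3854 in A2780CBNDXL and 5438, 5323, 6101 and 4690 in its control, which did not overlap. The log2 ratios were 0.55, -0.17, 0.70 and -0.19 in A2780CBN, with a mean of 0.22, and -0.54, -0.31, -0.41 and -0.28 in A2780CBNDXL, with a mean of -0.39 ± 0.12 (SD, n = 4 arrays). The difference of the ratios was -0.61 ± 0.57, lower in A2780CBNDXL on 4 of 4 pairs. On scaled signals, A2780CBNDXL was 1.82-fold lower than A2780CBN (-0.87 ± 0.09) and the controls differed by -0.26 ± 0.60. The TUBG1 probe is identical to a TUBG2 probe at 36 of the 38 bases where they overlap, and the annotation lists that TUBG2 probe under both genes. It had mean ratios of 0.16 in A2780CBN and -0.28 in A2780CBNDXL.

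Directly between the lines, 5 tubulins could be compared as a difference of log2 ratios, and TUBB2B was the only one that differed by at least 2-fold, with -5.85 ± 0.76 (SD, n = 4 array pairs, lower in A2780CBNDXL on 4 of 4) on the measured signals. It was tested through the control of A2780CBNDXL, since that line's own channel was well above background on 1 of 4 arrays. With this channel raised to the lowest signal well above background, the difference was -5.66, and with both channels required above background TUBB2B was not tested. Over all genes compared, 16.6% differed by this rule. By probe, 12 tubulin probes were compared and 1 differed, TUBB2B, against 16.2% of all probes compared. The 3′ probe of TUBB3 differed by -0.55 ± 0.21, with 4 of 4 pairs lower in A2780CBNDXL.

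**Figure D3:**
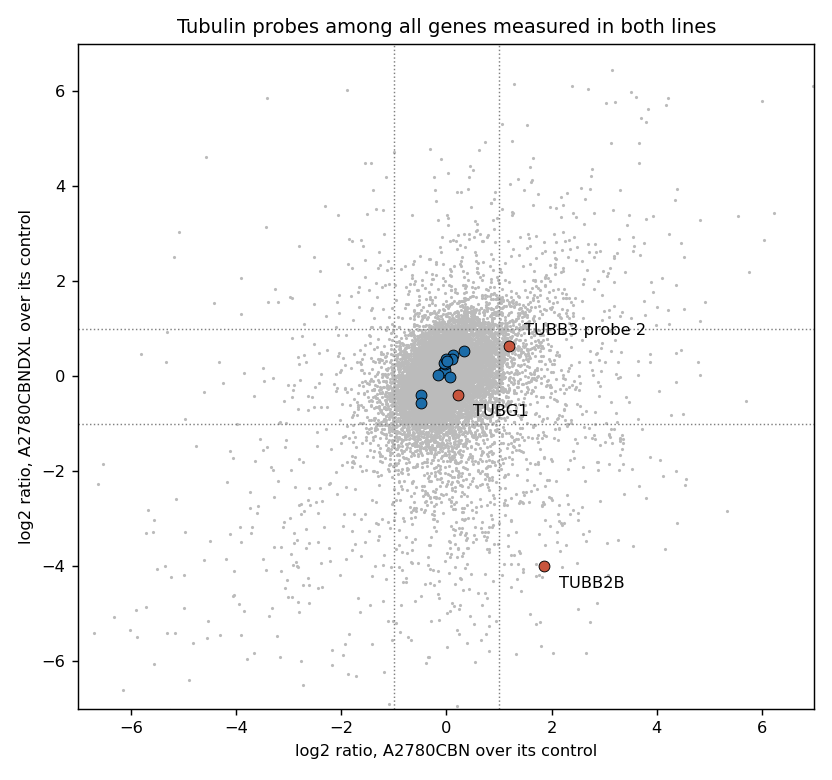
Mean log2 ratio over control in A2780CBN (x axis) against A2780CBNDXL (y axis) for 16131 genes tested in both lines (grey; 14 lie outside the axes) and for the tubulin probes measured in both lines (circles; red for TUBB2B, the 3′ probe of TUBB3 and TUBG1). TUBB2B stands at 1.86 and -4.00 in the lower right quadrant, and the other tubulins lie within 2-fold of the origin on both axes, save the 3′ probe of TUBB3 at 1.19 and 0.64.

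The genes whose scaled signal over the 16 channels was most like TUBB2B, among 11009 named genes, were IL21R (Pearson r = 0.991), POU4F1 (0.988), PAM (0.981), RRAGD (0.980) and ABHD6 (0.979). IL21R, a cytokine receptor, had log2 ratios of 1.82 (A2780CBN) and -4.23 (A2780CBNDXL). In the same order, POU4F1, a neuronal transcription factor, had 2.50 and -4.91, and PAM, a peptide-amidating enzyme, had 1.45 and -2.44. RRAGD, a GTPase of the mTORC1 pathway, had 1.79 and -3.97, and ABHD6, a lipid hydrolase, was smaller in both, at 0.40 and -1.50. For the 3′ probe of TUBB3 they were TLK2 (0.964), HIST1H2AD (0.962), PAPPA (0.944), ZCWPW1 (0.942) and RAB11FIP2 (0.933). For the upstream probe of TUBB3, over the 14 channels it was measured in, they were DULLARD (0.957), PEMT (0.957), TUBB (0.948), COPS7A (0.947) and CDK4 (0.943). The lists of the TUBB3 probes had no gene in common. TUBB, whose probe has the same base at 41 of the 50 positions shown above, was in that of the upstream probe, after DULLARD and PEMT. The part of probe sequence in this correlation was not tested. The channels are 4 RNA samples on 8 arrays, so these correlations describe the arrays and carry no test.

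Other tubulins were read from a list of the family, with 10 genes on the array. None of the 9 tested was called in A2780CBN, against 8.0% of all genes called higher and 4.55% called lower. In A2780CBNDXL, 1 of 9 was called higher and 1 lower, against 7.7% and 9.2% of all genes tested. TUBE1, the epsilon tubulin of centrioles, had ratios of -2.61, -2.62, -2.86 and -2.75 in A2780CBNDXL (-2.71 ± 0.12) and of 0.79, 0.13, 0.59 and 0.07 in A2780CBN (0.39 ± 0.35; SD, n = 4 arrays each). In A2780CBNDXL its mean line signal was 44.6, well above background on 3 of 4 arrays, against 288 in the control on 4 of 4. TUBE1 was thus tested there through the control, and the dim line signal limits the size of its fall. TUBA3C, an alpha tubulin whose probe also lists TUBA3D, was at 1.01 ± 0.12 in A2780CBNDXL and -0.18 ± 0.24 in A2780CBN. Its mean signals, not scaled between arrays, were 635 in A2780CBNDXL and 582 in A2780CBN, against 315 and 661 in their controls. The controls thus differed more than the lines, and their part in this call was not tested. The brightest probe named for TUBA3D was at 0.13 in A2780CBNDXL and 0.06 in A2780CBN and was not called. The bright probe of TUBB2C, a class IV beta tubulin, had -0.26 and -0.18.

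**Figure D4:**
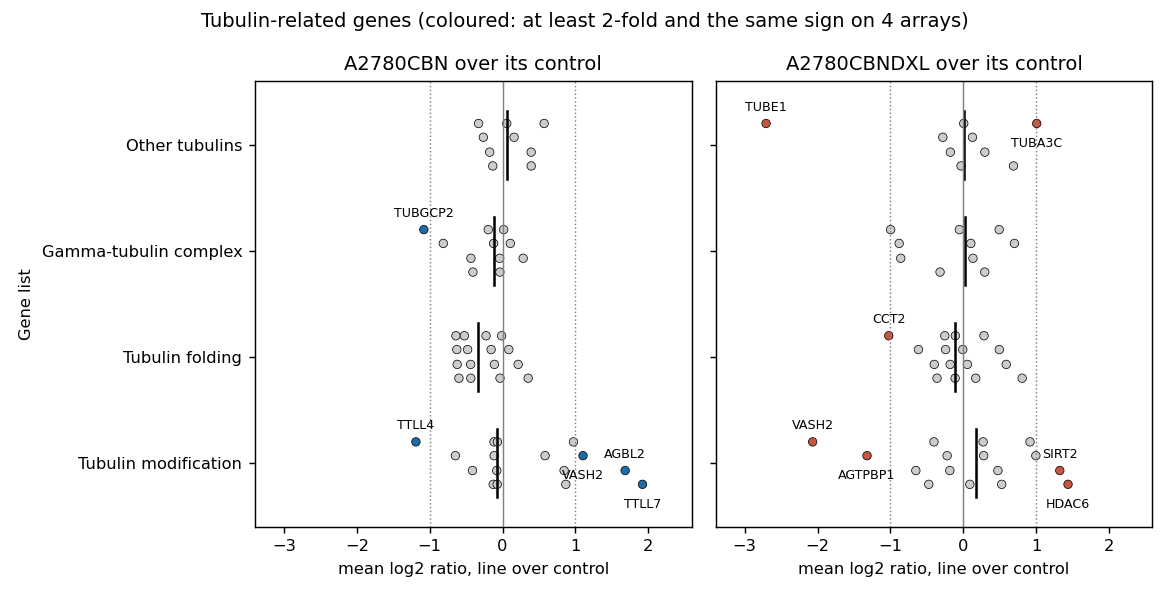
Mean log2 ratio of line over control (x axis) for the tested genes of 4 tubulin-related lists (y axis), with a black bar for the median of each list. Coloured and named points passed 2-fold with the same sign on 4 arrays, and all other points are grey; no list lies wholly to one side of 0.

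Of the gamma-tubulin complex and its partners, 1 of 11 tested genes was called in A2780CBN, as lower, and none of 10 was called in A2780CBNDXL. Of all genes tested, 12.6% were called in A2780CBN (4.55% as lower) and 16.9% in A2780CBNDXL. That gene was TUBGCP2, a core subunit of the ring complex, at -1.08 ± 0.07 in A2780CBN and 0.30 ± 0.38 in A2780CBNDXL (SD, n = 4 arrays each). The list's median log2 ratio was -0.12 and 0.03, against -0.06 and 0.04 for all genes tested.

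Of the tubulin cofactors, prefoldin and the CCT chaperonin, which fold tubulin into heterodimers, none of 16 tested genes was called in A2780CBN and 1 of 16 in A2780CBNDXL, against 12.6% and 16.9% of all genes tested. This was CCT2, a chaperonin subunit, at -1.02 ± 0.18 in A2780CBNDXL and -0.52 ± 0.48 in A2780CBN. The list had a median of -0.33 in A2780CBN and of -0.11 in A2780CBNDXL, against -0.06 and 0.04 for all genes tested.

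Of the enzymes that modify tubulin, 3 of 16 tested were higher and 1 lower in A2780CBN, against 8.0% and 4.55% of all genes tested. In A2780CBNDXL, 2 of 16 were higher and 2 lower, against 7.7% and 9.2%. The list's median was -0.07 in A2780CBN and 0.18 in A2780CBNDXL. VASH2, a tubulin carboxypeptidase that removes the terminal tyrosine of alpha-tubulin, had ratios of 0.76, 1.43, 0.82 and 1.41 in A2780CBN (1.11 ± 0.36) and of -1.89, -2.30, -1.90 and -2.18 in A2780CBNDXL (-2.07 ± 0.21), and so was called in opposite directions like TUBB2B. The share of all genes called in opposite directions is not given here. TTLL7, a polyglutamylase that prefers beta-tubulin, was at 1.92 ± 0.11 in A2780CBN and, just inside 2-fold, at 0.998 ± 0.09 in A2780CBNDXL. AGBL2, a cytosolic carboxypeptidase, was at 1.68 ± 0.35 in A2780CBN and -0.22 ± 0.47 in A2780CBNDXL. In A2780CBNDXL the deacetylases HDAC6 and SIRT2, which act on alpha-tubulin, were at 1.44 ± 0.20 and 1.33 ± 0.42 (SD, n = 4 arrays each), and in A2780CBN at 0.85 and 0.87. The remaining calls, named after their values were seen, were the polyglutamylase TTLL4, at -1.19 ± 0.29 in A2780CBN and -0.65 in A2780CBNDXL, and the deglutamylase AGTPBP1, at -0.11 in A2780CBN and -1.32 ± 0.51 in A2780CBNDXL. For AGTPBP1 the mean signals, not scaled between arrays, were 745 in A2780CBN and 607 in A2780CBNDXL, against 807 and 1629 in their controls. The part of the controls in this call was not tested. HDAC6 had a second probe, which lists no RefSeq transcript, with -1.22 in A2780CBN and -0.08 in A2780CBNDXL, against 0.85 and 1.44 at the brighter probe.

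Of the cell type markers, EPCAM, KRT8 and KRT18 of the epithelial genes, PAX8 of the ovarian carcinoma genes and VIM and CDH2 of the mesenchymal genes were above background in all 4 RNAs on at least 3 of 4 arrays, KRT19 on 2 to 4 arrays, while CDH1, KRT7, WT1, MUC16 and the leukocyte gene PTPRC were above background on no array. EPCAM was called higher in both lines (2.07 ± 0.30 in A2780CBN and 1.67 ± 0.24 in A2780CBNDXL), and KRT18 (1.05) and VIM (1.08) were called higher in A2780CBN. In that line KRT8, KRT19 and CDH2 were at -0.37, -0.48 and -0.21, and none was called. CDH2 was at 1.55 in A2780CBNDXL on the 3 arrays that measured it and was not tested. The part of these differences in the tubulin ratios was not tested.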

How the data were processed

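The authors labelled pooled RNA with Cy3 and Cy5, hybridized it to Agilent oligonucleotide arrays and read them with Agilent Feature Extraction (10.7.1.1 and 10.7.3.1 per the file headers), and they deposited spot intensities per channel, background-subtracted and dye-normalized by that software. Log2 ratios were taken from the processed intensities. Outlier spots were dropped, spots of a probe averaged, and forward and reverse means averaged with equal weight. Levels were compared between arrays after Aquantile scaling. The deposited text leaves the dyes of the reverse arrays open, and their name was followed.

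With 1 RNA sample per group, the design allowed a rule of size only (2-fold, same sign on 4 arrays). A 3-way analysis of variance and limma over the arrays were run as alternatives and cover array error. The code of the rule, limma and the analysis of variance was run on simulated data. The planted changes were well past 2-fold, with noise below the median SD over arrays and no dim or missing spots. Such a run cannot show how the rule treats changes near 2-fold or dim signals such as TUBB2B in A2780CBNDXL. Named genes were all members, with their probes, up to 5 called genes of each list by size, and the 5 most correlated genes for TUBB3 and for the member with the largest difference between the lines. Members and lists were chosen with earlier results of these data known. RefSeq accessions were named through a GRCh38.p14 table. R 4.3.3, limma 3.58.1 and Python 3.11.15 were used.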

Additional observations from a re-analysis of the deposited data

Results flagged for a closer look

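TUBB2B moved in opposite directions in the lines: it was higher than control on 4 of 4 arrays of A2780CBN and lower on 4 of 4 arrays of A2780CBNDXL, with a difference of log2 ratios of -5.85 on the measured signals. Each line is 1 RNA sample, so the difference between the lines was not tested across samples. The control channels differed by 1.46 on the scaled log2 scale, higher for A2780CBNDXL on 4 of 4 pairs, and their part in this difference was not tested. The line channels alone differed by -4.39. The A2780CBNDXL channel was well above background on 1 of 4 arrays, and with it raised to the lowest signal well above background these differences were -5.66 and -4.20.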

How the results depend on the processing

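TUBB2B was called in both lines and between them when any of the 4 arrays was left out (1 tubulin called in A2780CBN, in A2780CBNDXL and between the lines in each case), with background-subtracted signals, on either slide alone, with slide as a block and in either labelling direction alone. Each of its array ratios was past 2-fold with the same sign within a line. Subsets of the arrays and slide as a block therefore had to call it and add no support. It was also called in both lines at 3-fold, by the 3-way analysis of variance and by limma over the arrays. Over the alternatives its log2 ratio in A2780CBN lay between 0.40 and 2.00, and its ratio in A2780CBNDXL between -4.55 and -1.30. In A2780CBN, 0 tubulins were called with normexp and loess and 0 against the control of the other line, and 2 with the brightest probe that lists 1 gene, which was added after the data were seen, as was keeping genes measured on 3 of 4 arrays (1 in each comparison). With both channels required above background, 0 were called in A2780CBNDXL and 0 between the lines, since TUBB2B could then not be tested. Between the lines, 2 were called on forward arrays alone, 2 against the other control and 2 at 1.5-fold, where TUBG1, lower in A2780CBNDXL, joined TUBB2B. Over all genes, 3069, 3134 and 5256 differed there, in the same order, against 2675 by the reported rule. In A2780CBN, 2318 of all genes were called against the other control and 2245 with the brightest probe that lists 1 gene, against 2253. Requiring both channels above background left 1962 in A2780CBNDXL and 2020 between the lines, against 2893 and 2675. Over the related lists, with 3 genes higher and 2 lower in A2780CBN and 3 higher and 4 lower in A2780CBNDXL, normexp and loess left 0 and 0 in A2780CBN and 2 and 2 in A2780CBNDXL, and the 1.5-fold limit gave 6 and 8, and 9 and 9. Over all genes of the array, normexp and loess called 604 in A2780CBN and 1172 in A2780CBNDXL. The 1.5-fold limit called 4860 and 5699, against 2253 and 2893 by the reported rule. The counts of the lists thus moved in the same direction as those of the whole array. The cause was not tested. Under the alternatives, 206 of 212 values of the other tubulins stayed within 1 SD over arrays of the reported value and 6 moved by more. Many alternatives reuse part of the same 4 arrays, and this SD includes the difference between labelling directions. Such counts were thus largely fixed by the values above and do not measure stability, and a value within 1 SD may have changed sign. Of 29 values of TUBB2B, 24 stayed within 1 SD, 27 passed 2-fold in the same direction, 2 did not (A2780CBN, 0.94 and 0.40) and none changed sign. No paired analysis was possible because each group holds 1 sample. Dim signals limit the size of the TUBB2B fall, since its line channel was well above background on 1 of 4 arrays.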

Other observations

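TUBA4A, an alpha tubulin outside the members, had 4 probes that differed among themselves. The 3 probes that also list a noncoding transcript had mean log2 ratios of 0.19, -0.13 and -0.17 in A2780CBN and of -0.08, 0.01 and -0.01 in A2780CBNDXL. The probe that lists TUBA4A alone had 0.87 ± 0.43 in A2780CBN, below 2-fold, and -2.48 ± 0.09 in A2780CBNDXL (SD, n = 4 arrays each). Its means thus had opposite signs in the lines. The share of all probes with opposite signs is not given here. The brightest TUBA4A probe stood for the gene, and by it TUBA4A was not called in either line. This probe is identical to a TUBA1C probe at 29 of the 31 bases where they overlap. Its mean signal in A2780CBNDXL was 76663, against 55.1 at the probe that lists TUBA4A alone. The part of other alpha tubulins in its signal was not tested.

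The 2 probes of TUBB4 (now TUBB4A) also differed in A2780CBNDXL, with 0.69 ± 0.29 at the brighter probe and -0.31 ± 0.11 at the 3′ probe, against 0.39 ± 0.14 and 0.50 ± 0.67 in A2780CBN (SD, n = 4 arrays each). All 3 probes of TTLL7 gave like values, between 1.85 and 2.07 in A2780CBN, and in A2780CBNDXL between 0.91 and 1.07.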
